A study of Mus musculus with 6 samples.

Results

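The genes described here are 7 that encode enzymes, and a recruiting cofactor, which write, copy and remove methyl groups on the cytosines of DNA: Dnmt1, Dnmt3a, Dnmt3b, Uhrf1, Tet1, Tet2 and Tet3. They were chosen by name, as the rows of the deposited normalized table that carry one of these symbols, and all 7 were found among its 13564 genes.

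In mammalian DNA most methylated cytosines stand in CpG, a C followed by a G. Dnmt3a and Dnmt3b place new methyl groups. Uhrf1 recognises the half-methylated CpG left by DNA replication and recruits Dnmt1, which copies the mark onto the new strand. Tet1, Tet2 and Tet3 oxidise 5-methylcytosine, and the oxidised bases are then lost by dilution at replication or cut out by base excision repair. In CD4 T cells these enzymes take part in fixing or relaxing the silencing of cytokine and lineage genes after activation.

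RNA was measured in cultures of naive CD4 T cells (CD4N cells) sorted by flow cytometry from the lymph nodes of Foxo1TKO mice (3 libraries) and Foxo1Ctrl mice (3 libraries), all C57BL/6. Foxo1TKO mice carry floxed Foxo1 alleles and a Cre recombinase under CD4 control, which acts at the CD4+ CD8+ stage of thymic development, so that both the CD4 and the CD8 lineage are targeted. Foxo1Ctrl mice carry the floxed alleles without Cre. Per the labels, 50000 T cells were activated for 4 days with the anti-CD3 antibody 145-2C11 at 0.1 µg per ml and 250000 splenocytes of CD3eKO mice, which have no T cells but keep their B and myeloid cells. The methods give a larger number of T cells, above that of the splenocytes, for cultures of this kind, so the ratio of T cells to splenocytes is uncertain. The labels give no age for the donor mice. The paper describes the Foxo1-deficient donors as young adult, and the Foxo1TKO and Foxo1Ctrl strains as C57BL/6 with a Foxp3-GFP reporter. Neither the labels nor the methods say whether the splenocytes were removed before lysis, whether mice were pooled, or whether the libraries came from separate animals. The p-values below therefore measure the spread between these libraries. Library totals ran from 14783900 to 19675400 expected counts.

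The targeted gene was low in the 3 Foxo1TKO libraries. Foxo1 had 1529, 2285 and 1598 normalized counts in Foxo1Ctrl libraries 1, 2 and 3 and 85.4, 46.5 and 115 in Foxo1TKO libraries 1, 2 and 3, a log2 fold change of -4.45 ± 0.36 (SE; edgeR, adjusted p = 0.000195). T cell markers predominated. The summed level of 10 T cell genes was 11799 to 12310 TPM (RSEM's length-scaled transcript level) in Foxo1Ctrl and 10754 to 11615 TPM in Foxo1TKO libraries, against 22.7 to 29.6 and 7.19 to 9.99 TPM for 9 B cell genes. Of the 7 B cell genes tested, 4 were lower in Foxo1TKO (Ms4a1, Cd79a, Cd79b and Cd22) and none higher with edgeR (all genes, 12.4% and 11.8%). With DESeq2 4 were lower, with limma-voom 3 and at an unadjusted edgeR p under 0.05 5, and none was higher in these either. The count of 4 was 2 without Foxo1Ctrl library 1 or 3 or Foxo1TKO library 1 or 2, and Ms4a1 and Cd79b passed in each of these. Of the 10 T cell genes, 9 did not pass and Cd28, a costimulatory receptor, was lower. Genes of macrophages and monocytes summed to 2.59 to 3.90 TPM in Foxo1Ctrl against 4.56 to 6.03 TPM in Foxo1TKO (7 genes, Mertk at 0), and those of neutrophils to 0 to 0.31 against 0.28 to 5.39 TPM (5 genes). Dendritic cell genes summed to 2.11 to 4.41 against 3.36 to 3.84 TPM (6 genes), CD8 genes to 6.87 to 8.29 against 4.27 to 6.48 TPM (2 genes) and erythroid genes to 40.2 to 69.6 against 35.4 to 65.0 TPM (6 genes). Among 4 NK cell genes, summed at 6.70 to 10.7 against 26.7 to 33.8 TPM, 1 of 3 tested was higher, Eomes, which activated T cells also express. The part of other cells in the results on the methylation enzymes was not tested.

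Regulatory sequence is given for the members whose values the results turn on, as 300-base windows around their RefSeq starts (250 bases before to 50 after the start, GRCm38.p6, gene strand, 5′ to 3′). The 7 genes have 12 such windows. For Dnmt1 and Uhrf1, the replication-coupled pair, the letters TTTNNCGC, which resemble the core recognised by E2F factors of the cell cycle, are in capitals on either strand. They occur in 1 of 3 Dnmt1 windows and in both Uhrf1 windows, in none of the other 9 windows, and in 5.17% of all 32851 mouse promoter windows. In the Dnmt1 window (chr9:20952574-20952873, minus strand), which lies downstream of the start of transcript Dnmt1-201 at 20952979, they begin at bases -219, -217 and 34 from the start, the first 2 overlapping on the opposite strand. Only the 30 bases around each place are printed. In the Uhrf1 windows they begin at bases -56 and -185.
Dnmt1 (chr9:20952823-20952852, minus strand): gtttccgcgcGCGCGAAAAAgccggggtct
Dnmt1 (chr9:20952574-20952603, minus strand): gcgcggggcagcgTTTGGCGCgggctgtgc
Uhrf1, first start (chr17:56303087-56303386, plus strand): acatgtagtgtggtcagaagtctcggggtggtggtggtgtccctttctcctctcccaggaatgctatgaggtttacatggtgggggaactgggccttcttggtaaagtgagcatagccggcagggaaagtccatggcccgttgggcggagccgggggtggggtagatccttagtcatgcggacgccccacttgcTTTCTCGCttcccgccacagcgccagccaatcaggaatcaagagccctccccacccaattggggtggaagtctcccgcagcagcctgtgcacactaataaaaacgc
Uhrf1, second start (chr17:56304063-56304362, plus strand): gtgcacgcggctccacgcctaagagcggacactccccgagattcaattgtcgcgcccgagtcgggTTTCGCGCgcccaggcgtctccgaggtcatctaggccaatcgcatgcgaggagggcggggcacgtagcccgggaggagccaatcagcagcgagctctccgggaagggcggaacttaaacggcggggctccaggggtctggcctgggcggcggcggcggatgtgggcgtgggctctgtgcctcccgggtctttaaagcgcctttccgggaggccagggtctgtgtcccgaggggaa

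For Dnmt3a and Tet2, the most abundant members, CpG sites are in capitals, since CpG is what the enzymes act on. Dnmt3a has 2 overlapping windows that lie upstream of an internal one. The first ends just before the start of the 9685-base transcript Dnmt3a-201 at 3807030. The second (3806910 to 3807209) spans that start and the start of transcript Dnmt3a-218 at 3807160, so part of it is transcribed. The internal window lies around the start of the 5424-base transcript Dnmt3a-203. The upstream windows hold 46 and 47 CpG, more than 98.4% and 98.6% of all promoter windows. The internal one holds 18, and the Tet2 window 57, more than 99.8% of all windows, where the median is 7. The other members also had windows above that median. Dnmt3b had 30 CpG, Tet3 22, Tet1 17, the Uhrf1 windows 12 and 33, and the Dnmt1 windows 33, 12 and 2. The letters TGTTTAC, which resemble a site of Foxo factors, are on neither strand of any of the 12 windows and in 3.65% of all promoter windows. All of these are matches of letters in short windows, not binding sites.
Dnmt3a, first upstream window (chr12:3806730-3807029, plus strand): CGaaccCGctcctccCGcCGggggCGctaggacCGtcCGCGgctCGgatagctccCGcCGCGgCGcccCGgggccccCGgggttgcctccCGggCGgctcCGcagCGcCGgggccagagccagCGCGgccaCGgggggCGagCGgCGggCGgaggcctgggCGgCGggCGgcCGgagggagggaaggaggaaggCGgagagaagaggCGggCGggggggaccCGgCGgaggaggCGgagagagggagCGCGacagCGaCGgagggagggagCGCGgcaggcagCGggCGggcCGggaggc
Dnmt3a, internal window (chr12:3891494-3891793, plus strand): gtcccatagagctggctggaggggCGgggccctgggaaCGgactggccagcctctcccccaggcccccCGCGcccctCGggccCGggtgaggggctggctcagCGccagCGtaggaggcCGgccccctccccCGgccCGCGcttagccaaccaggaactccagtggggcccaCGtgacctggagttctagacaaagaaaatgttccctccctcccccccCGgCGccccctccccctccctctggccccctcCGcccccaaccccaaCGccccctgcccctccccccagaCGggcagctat
Tet2 (chr3:133544341-133544640, minus strand): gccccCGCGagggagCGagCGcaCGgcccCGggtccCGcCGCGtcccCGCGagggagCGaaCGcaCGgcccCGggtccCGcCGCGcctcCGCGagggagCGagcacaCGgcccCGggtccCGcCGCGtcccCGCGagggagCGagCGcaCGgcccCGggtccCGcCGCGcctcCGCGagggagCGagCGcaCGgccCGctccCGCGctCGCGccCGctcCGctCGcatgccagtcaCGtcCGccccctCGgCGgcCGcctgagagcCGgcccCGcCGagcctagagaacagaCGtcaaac

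To ask how the loss of Foxo1 bears on the machinery as a whole, each gene was tested for a difference between genotypes with edgeR over 13691 genes, those that reached 10 counts in 3 or more libraries. A gene passed at a Benjamini-Hochberg adjusted p under 0.05. All 7 genes were in the test. Dnmt3a, Uhrf1 and Tet2 were higher in Foxo1TKO cells and none was lower, so that 3 of 7 passed. At an unadjusted p under 0.05, 4 were higher and 1 lower, Tet3, which passed as lower only with DESeq2 and limma-voom. Of all genes tested, 24.2% passed, 11.8% as higher and 12.4% as lower in Foxo1TKO, which sets the scale for so short a list. With scaling by library totals only, 2048 genes were higher and 1399 lower, against 1613 and 1695. The normalized counts of 5 of the 7 did not overlap between genotypes, against 42.7% of all genes. The median log2 fold change was 0.61 over the 7 genes and 0.01 over all genes. As these are bulk libraries, more cells carrying a transcript and more transcript per cell cannot be told apart.

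**Figure D1:**
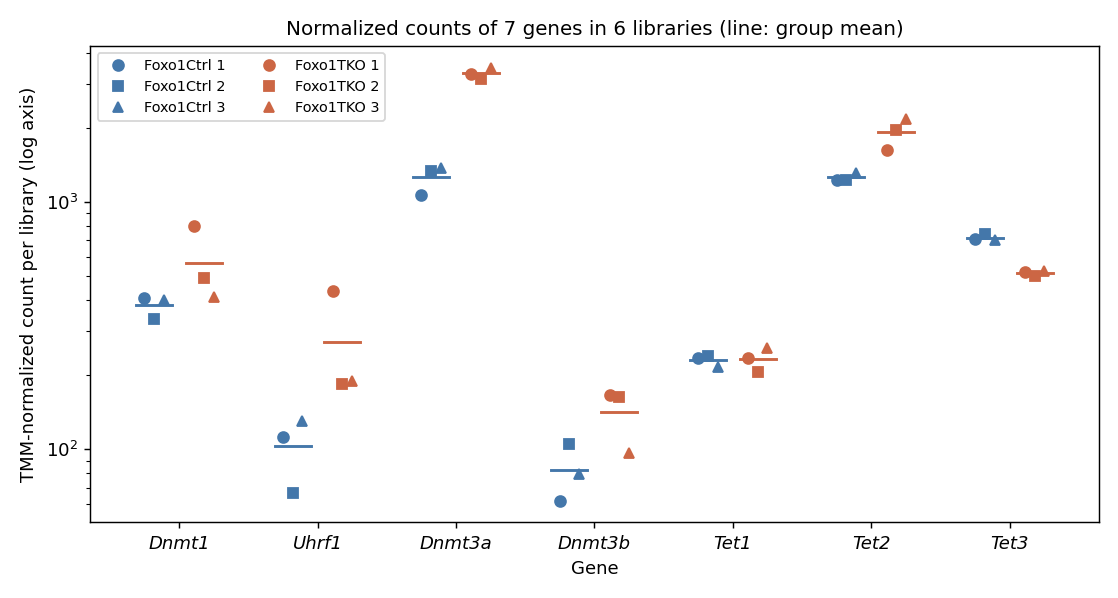
TMM-normalized counts (log axis) of the 7 genes in the 3 Foxo1Ctrl (blue) and 3 Foxo1TKO (orange) libraries; each symbol is a library and each line a group mean. Dnmt3a, Uhrf1 and Tet2 lie higher and Tet3 lower in the 3 Foxo1TKO libraries, Tet1 overlaps, and Foxo1TKO library 1 is the highest for Dnmt1 and Uhrf1.

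Dnmt3a (ENSMUSG00000020661, GRCm38 chromosome 12, 3806007 to 3914443, plus strand), the main de novo methyltransferase of T cells, showed the clearest difference. It had 1064, 1338 and 1370 normalized counts in the Foxo1Ctrl libraries and 3302, 3137 and 3495 in the Foxo1TKO libraries. The groups lay far apart, and within each the values were close, at 1257 ± 168 and 3311 ± 180 (SD, n = 3). The difference was 2.63-fold, a log2 fold change of 1.40 ± 0.15 (SE; edgeR, adjusted p = 0.000777), at rank 344 of all genes by adjusted p. Dnmt3a passed whichever of the 6 libraries was left out, with log2 fold changes of 1.28 to 1.46.

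Dnmt3b (ENSMUSG00000027478, chromosome 2, 153649450 to 153687730, plus strand), the second de novo enzyme, best known from early embryos, was far scarcer. It had 62.0, 105 and 79.5 normalized counts in Foxo1Ctrl and 166, 162 and 96.6 in Foxo1TKO. Foxo1TKO libraries 1 and 2 were above all controls, whereas library 3 fell between controls 2 and 3. The log2 fold change was 0.78 ± 0.32 (SE; edgeR, adjusted p = 0.115) and did not pass. Its level per length was 1.48 ± 0.19 TPM in Foxo1Ctrl and 2.65 ± 0.88 TPM in Foxo1TKO (SD, n = 3), beside 17.4 ± 4.3 and 54.3 ± 19.1 TPM for Dnmt3a.

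Uhrf1 (ENSMUSG00000001228, chromosome 17, 56303321 to 56323486, plus strand), the reader of half-methylated CpG, rose 2.61-fold but with a wide spread. It had 112, 66.3 and 130 normalized counts in Foxo1Ctrl and 438, 184 and 189 in Foxo1TKO. Each Foxo1TKO library was above each control, and library 1 stood at more than the other Foxo1TKO libraries together. The log2 fold change was 1.39 ± 0.41 (SE; edgeR, adjusted p = 0.0448). The call rested on the set of libraries: without Foxo1TKO library 1 the log2 fold change was 0.84 (adjusted p = 0.107), and without Foxo1Ctrl library 1, 2 or 3 or Foxo1TKO library 2 the adjusted p was 0.106, 0.0949, 0.0739 and 0.0583. It was also lost with limma-voom (adjusted p = 0.0592), with scaling by library totals only (0.0526), with an offset for transcript length (0.0566) and with the deposited signal (0.0617).

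Dnmt1 (ENSMUSG00000004099, chromosome 9, 20907209 to 20959888, minus strand), the maintenance methyltransferase, had 410, 336 and 403 normalized counts in Foxo1Ctrl and 802, 490 and 414 in Foxo1TKO. Again library 1 of Foxo1TKO was the highest, and library 3 lay just above the highest control. The groups did not overlap, but the log2 fold change of 0.57 ± 0.27 (SE) did not pass (edgeR, adjusted p = 0.163). Without Foxo1TKO library 1 it was 0.23.

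Levels of proliferation genes are given beside Dnmt1 and Uhrf1, which act at DNA replication. The summed level of 24 proliferation genes was 694, 688 and 670 TPM in Foxo1Ctrl libraries 1 to 3 and 1342, 1104 and 851 TPM in Foxo1TKO libraries 1 to 3. Foxo1TKO library 1 was the highest for these genes as for Dnmt1 (12.4 TPM) and Uhrf1 (10.3 TPM). In TPM, Foxo1TKO library 2 had less Dnmt1 (8.06 TPM) than library 3 (8.39 TPM), the reverse of their proliferation sums. Its normalized counts of Dnmt1 were higher than those of library 3 (490 against 414). The estimated Dnmt1 transcript lengths were 4165 and 3205 bases in these libraries. Foxo1Ctrl libraries 2 and 3, with close sums, had 1.16 and 2.95 TPM of Uhrf1. The log2 ratio of Dnmt1 to this sum was -6.69 ± 0.13 in Foxo1Ctrl and -6.84 ± 0.23 in Foxo1TKO (SD, n = 3; exact permutation test, two-sided p = 0.4), and that of Uhrf1 was -8.41 ± 0.72 and -7.70 ± 0.60 (p = 0.4). The smallest p that 3 libraries against 3 allow is 0.1, so neither ratio could have passed. Of the 24 genes, 9 were higher in Foxo1TKO and none was lower (14 and 0 at an unadjusted p under 0.05, 12 and 0 with DESeq2, 10 and 0 with limma-voom). Of all genes tested, 11.8% were higher and 12.4% lower. The median log2 fold change of the 24 was 0.72, and 21 had a positive value. The largest log2 fold changes among the 9 that passed were those of Mcm5 (1.49), Cdc6 (1.17) and Mcm6 (1.12), which license replication origins, Cdk1 (1.04), the mitotic kinase, and Rrm2 (0.94), which makes deoxynucleotides. Top2a, which untangles chromosomes, was higher as well (0.80 ± 0.20, SE; edgeR, adjusted p = 0.0246), but Mki67, the usual marker of cycling cells, had a log2 fold change of -0.12 ± 0.28 (adjusted p = 0.799). The count of 9 fell to 4 without Foxo1TKO library 2, 5 without Foxo1Ctrl library 3 and 6 without Foxo1Ctrl library 1, and the calls for Mcm5, Cdc6 and Mcm6 held in the 6 such fits. Cdk1 kept its call only without Foxo1Ctrl library 2, Rrm2 lost it without Foxo1Ctrl library 3 or Foxo1TKO library 2, and Top2a lost it without Foxo1Ctrl library 1 or 3 or Foxo1TKO library 1 or 2. The part of proliferation in the levels of Dnmt1 and Uhrf1 was not tested beyond these ratios. By dilution of a dye in cultures of this kind, the paper reported markedly reduced proliferation of T cells without Foxo1. How the transcript levels relate to that measure was not tested.

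**Figure D2:**
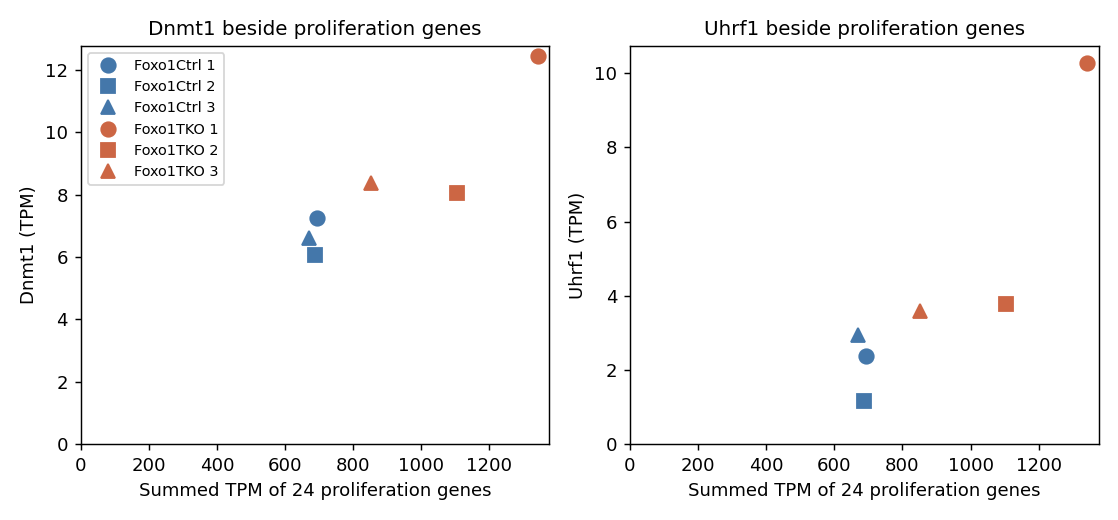
Level of Dnmt1 (left) and Uhrf1 (right) in TPM against the summed TPM of 24 proliferation genes, 1 symbol a library, Foxo1Ctrl in blue and Foxo1TKO in orange. The Foxo1Ctrl libraries sit together at 670 to 694 TPM of proliferation genes, and Foxo1TKO library 1 is at the top of both axes (1342 TPM; Dnmt1 12.4 TPM, Uhrf1 10.3 TPM).

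Among the Tet genes, only Tet2 passed with edgeR on the 6 libraries. Tet2 (ENSMUSG00000040943, chromosome 3, 133463679 to 133545139, minus strand), the most abundant Tet enzyme here and a regulator of cytokine genes in T cells, had 1225, 1233 and 1316 normalized counts in Foxo1Ctrl and 1624, 1960 and 2173 in Foxo1TKO. The groups did not overlap. Tet2 rose 1.53-fold, a log2 fold change of 0.61 ± 0.16 (SE; edgeR, adjusted p = 0.0256). The adjusted p was 0.0841 without Foxo1Ctrl library 1, 0.0656 without Foxo1Ctrl library 3, 0.0962 without Foxo1TKO library 2 and 0.0894 without Foxo1TKO library 3, with log2 fold changes of 0.51 to 0.64.

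Tet3 (ENSMUSG00000034832, chromosome 6, 83362373 to 83459084, minus strand) was at lower values in Foxo1TKO, with 709, 743 and 701 normalized counts in Foxo1Ctrl and 523, 502 and 528 in Foxo1TKO. The spread within groups was small, 718 ± 23 and 518 ± 14 (SD, n = 3), and the groups did not overlap. Even so, the log2 fold change of -0.47 ± 0.15 (SE) stood just outside the threshold (edgeR, adjusted p = 0.0517). It passed with DESeq2 (adjusted p = 0.0169) and with limma-voom (adjusted p = 0.0472).

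Tet1 (ENSMUSG00000047146, chromosome 10, 62804570 to 62908996, minus strand) had 235, 238 and 216 normalized counts in Foxo1Ctrl and 234, 204 and 258 in Foxo1TKO. The groups overlapped fully. The log2 fold change was 0.01 ± 0.19 (SE; edgeR, adjusted p = 0.966), and its sign changed between alternative settings.

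**Figure D3:**
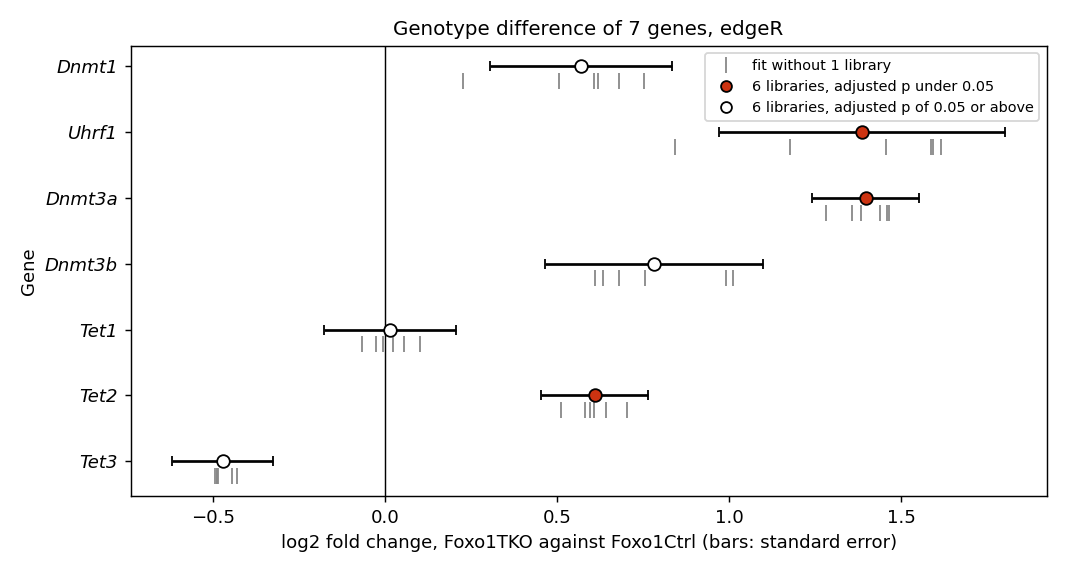
Log2 fold change (Foxo1TKO against Foxo1Ctrl) of each gene with its standard error from edgeR on 6 libraries; filled points have an adjusted p under 0.05 and grey ticks are the 6 fits that each leave out 1 library. Dnmt3a ticks stay within 1.28 to 1.46, those of Uhrf1 spread from 0.84 to 1.62, Tet1 ticks fall on both sides of 0 and those of Tet3 stay below 0.

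Levels between genes were compared in TPM, which divide by transcript length. In the 3 Foxo1Ctrl libraries Tet2 was first (22.7 ± 3.2 TPM, SD, n = 3), followed by Dnmt3a (17.4 ± 4.3), Dnmt1 (6.64 ± 0.60), Tet3 (4.66 ± 0.50), Tet1 (3.47 ± 0.57), Uhrf1 (2.16 ± 0.91) and Dnmt3b (1.48 ± 0.19). The ranges of Tet2 and Dnmt3a, of Tet1 and Uhrf1, and of Uhrf1 and Dnmt3b overlapped between libraries. In the Foxo1TKO libraries Dnmt3a (54.3 ± 19.1 TPM) and Tet2 (43.7 ± 8.4) headed the list with overlapping ranges, and Dnmt1 (9.63 ± 2.44), Uhrf1 (5.89 ± 3.80), Tet1 (3.63 ± 1.15), Tet3 (3.51 ± 0.43) and Dnmt3b (2.65 ± 0.88) followed, with ranges that overlapped between neighbours among these 5. In TPM, Dnmt3a was above Tet2 in Foxo1TKO libraries 1 and 2 and below it in the other 4 libraries. This order depends on the estimated transcript lengths. In normalized counts, not divided by length, Dnmt3a was above Tet2 in Foxo1TKO libraries 1 (3302 against 1624), 2 (3137 against 1960) and 3 (3495 against 2173). The same held in Foxo1Ctrl libraries 2 (1338 against 1233) and 3 (1370 against 1316), but not in library 1 (1064 against 1225). All 7 together summed to 57.9, 50.2 and 67.4 TPM in Foxo1Ctrl and 146, 112 and 112 TPM in Foxo1TKO. Dnmt3a made up 25.6% to 31.6% of that sum in Foxo1Ctrl and 35.7% to 52.1% in Foxo1TKO.

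The balance within families was compared by log2 ratios of TPM. The ratio of Dnmt3a to Dnmt1 was 1.36 ± 0.30 in Foxo1Ctrl and 2.47 ± 0.19 in Foxo1TKO (SD, n = 3), without overlap. The ratio of Tet3 to Tet2 was -2.28 ± 0.23 in Foxo1Ctrl and -3.63 ± 0.45 in Foxo1TKO, also without overlap. That of Dnmt3b to Dnmt3a was -3.53 ± 0.42 and -4.37 ± 0.34. Each of these 3 reached an exact permutation p of 0.1, the smallest that 3 libraries against 3 allow, and 0.429 after Benjamini-Hochberg adjustment over the 15 ratios and lengths tested. The ratio of Uhrf1 to Dnmt1 was -1.72 ± 0.62 and -0.86 ± 0.51, and that of Tet1 to Tet2 was -2.72 ± 0.31 and -3.62 ± 0.67, both overlapping (exact permutation p = 0.2). The summed Tet genes stood at 0.28 ± 0.18 against the summed Dnmt genes in Foxo1Ctrl and at -0.35 ± 0.66 in Foxo1TKO, where the 3 libraries ran from -1.07 to 0.22 (exact permutation p = 0.2). None of these ratios could have passed in this design.

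TPM carries the transcript length that RSEM estimates for each gene in each library from its mix of isoforms, and these lengths were unsteady for several members. For Dnmt3a they were 4205, 6064 and 4534 bases in Foxo1Ctrl and 3336, 4574 and 5529 bases in Foxo1TKO. For Tet2 they were 4318, 3386 and 3568 bases in Foxo1Ctrl and 3555, 3062 and 2755 bases in Foxo1TKO. The Tet2 values were well under the 9179 bases of its longest transcript, Tet2-201, among 10 annotated transcripts of which 5 retain an intron. The genotypes overlapped for the lengths of all 7 genes, and the exact permutation p ran from 0.2 for Tet2 to 1 for Tet3. Uhrf1 was the steadiest, at 3159 to 3394 bases over the 6 libraries. Expected counts are not divided by length. With a length offset in edgeR the log2 fold change of Tet2 was 0.91, above the 0.61 from counts, and that of Dnmt3a was 1.58. Exons of Dnmt3a overlap those of Dnmt3aos and exons of Tet2 overlap those of Gm42567 on the opposite strand. Whether counting used strand is not given in the sources used here, so reads from these pairs may not have been told apart.

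**Figure D4:**
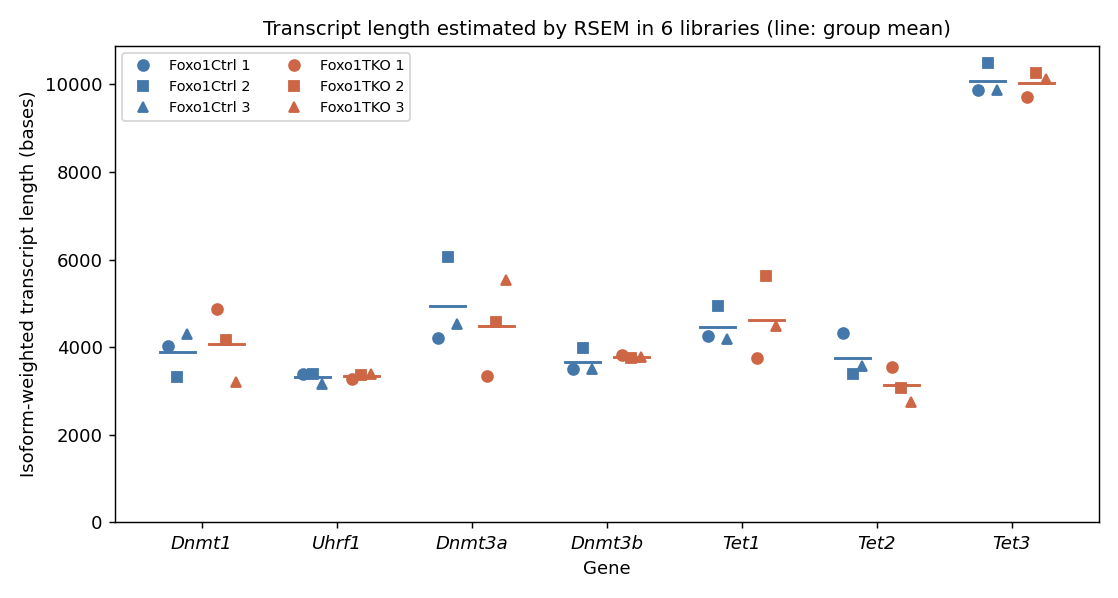
Isoform-weighted transcript length in bases estimated by RSEM for each gene in each library (blue Foxo1Ctrl, orange Foxo1TKO; line, group mean). Lengths of Dnmt3a spread from 3336 to 6064 bases, those of Uhrf1 from 3159 to 3394, and the genotypes overlap for each gene.

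The genes that work with these enzymes were taken as lists, chosen with earlier results of these data known. For scale beside the count of each list, 11.8% of all genes tested passed as higher and 12.4% as lower. Among 8 partners of maintenance methylation, 4 were higher in Foxo1TKO and 1 lower (median log2 fold change 0.43). Cdca7, which brings the remodeller Hells to chromatin, rose from 140 ± 16 to 771 ± 225 normalized counts (SD, n = 3), a log2 fold change of 2.45 ± 0.25 (SE; edgeR, adjusted p = 0.000565). Lig1, the ligase that joins Okazaki fragments, rose by 1.37 ± 0.19, Pcna, the replication clamp, by 0.83 ± 0.20 and Hells by 0.75 ± 0.19 on the log2 scale. Uhrf2, the relative of Uhrf1, moved in the opposite direction to it, from 1060 ± 236 to 468 ± 119 normalized counts, a log2 fold change of -1.18 ± 0.25 (adjusted p = 0.0120). Pcna and Hells lost their calls without Foxo1Ctrl library 1 or 3 or Foxo1TKO library 2 or 3, and Uhrf2 without Foxo1TKO library 2 (adjusted p = 0.0524). In 4 of these fits the count of higher genes was 2. Cdca7 and Lig1 passed in all 6.

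Of 5 cofactors of de novo methylation and related genes, Dnmt3l, the catalytically inactive partner of Dnmt3a in germ cells, had 0 counts in the 6 libraries. Qser1, which shields DNA from de novo methylation, was the only one of 4 tested genes to pass, at 0.99 ± 0.23 (log2, SE; edgeR, adjusted p = 0.0169), and it did not pass without Foxo1Ctrl library 1 (adjusted p = 0.0659). Nsd1 and Setd2, which make the histone marks that Dnmt3 enzymes read, had log2 fold changes of -0.63 ± 0.30 and -0.31 ± 0.14 and did not pass.

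Among 8 readers of methylated CpG, 1 was higher and 1 lower (median log2 fold change -0.10). At an unadjusted p under 0.05, 1 was higher and 2 lower, Mbd2 among the lower, and with DESeq2 1 was higher and 2 lower. Mbd3, a subunit of the NuRD complex that itself binds methylated DNA poorly, rose from 198 ± 52 to 992 ± 90 normalized counts, a log2 fold change of 2.32 ± 0.23 (SE; edgeR, adjusted p = 0.000434). Zbtb4, a repressor that binds methylated DNA, fell by 1.07 on the log2 scale (edgeR, adjusted p = 0.0160), and its adjusted p was 0.0512 without Foxo1Ctrl library 1, 0.0749 without Foxo1TKO library 2 and 0.0562 without Foxo1TKO library 3. Mbd1 had a log2 fold change of -0.60 ± 0.30 and Mbd2 of -0.83 ± 0.29, neither of which passed.

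For the steps that follow Tet oxidation, genes of base excision repair and Gadd45 genes were listed, not all of them specific to oxidised bases. Of 12 tested, 4 were higher and none lower (median log2 fold change 0.42). At an unadjusted p under 0.05, 6 were higher and none lower, and with DESeq2 5 were higher and none lower. Tdg, the glycosylase that removes the oxidised bases, had 1377, 1359 and 1982 normalized counts in Foxo1Ctrl and 3310, 3091 and 3071 in Foxo1TKO, a log2 fold change of 1.00 ± 0.18 (SE; edgeR, adjusted p = 0.00632). Apex1, which cuts the abasic site left behind, rose by 2.08 ± 0.20. Ung, the uracil glycosylase, rose by 2.13 ± 0.44, and Gadd45b, a stress gene linked to DNA demethylation, by 2.22 ± 0.20. These 4 passed in all 6 fits without 1 library. The rest of the repair chain, Polb, Xrcc1 and Lig3, did not pass, and Parp1 stood at 1.01 ± 0.31 (adjusted p = 0.0519).

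Among 7 tested genes that work with Tet enzymes, 2 were higher and 2 lower (median log2 fold change -0.15). Ogt, the glycosyltransferase that binds Tet2 and Tet3, fell by 0.75 on the log2 scale, from 11523 ± 476 to 6858 ± 371 normalized counts (SD, n = 3; edgeR, adjusted p = 0.00572). Idh2, which makes the Tet cosubstrate 2-oxoglutarate in mitochondria, fell by 1.04 (adjusted p = 0.00712), whereas Idh1, the cytosolic enzyme, had a log2 fold change of 0.06 ± 0.27. Cxxc5, a CpG-binding protein that can recruit Tet2, rose by 2.23 ± 0.47 on the log2 scale from 22.1 ± 16.1 normalized counts. Ogt, Idh2 and Cxxc5 passed in the 6 fits without 1 library. Cxxc4 had 0 counts in the 6 libraries.

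Of 10 genes of the methyl donor cycle, 3 were higher and none lower (median log2 fold change 0.59). At an unadjusted p under 0.05, 4 were higher and 2 lower, and with DESeq2 3 were higher and 2 lower, Mat2b among them. Shmt1, which loads folate with one-carbon units, rose by 1.93 ± 0.34, Mthfd1, which interconverts them, by 1.59 ± 0.38, and Mat2a, which makes the methyl donor S-adenosylmethionine, by 0.85 ± 0.20 (log2, SE; edgeR, adjusted p = 0.00562, 0.0187 and 0.0187). Mat2a lost its call without Foxo1Ctrl library 1, Foxo1TKO library 1 or Foxo1TKO library 2. Ahcy, which clears the product inhibitor S-adenosylhomocysteine, had a log2 fold change of 0.26 ± 0.20 and did not pass.

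**Figure D5:**
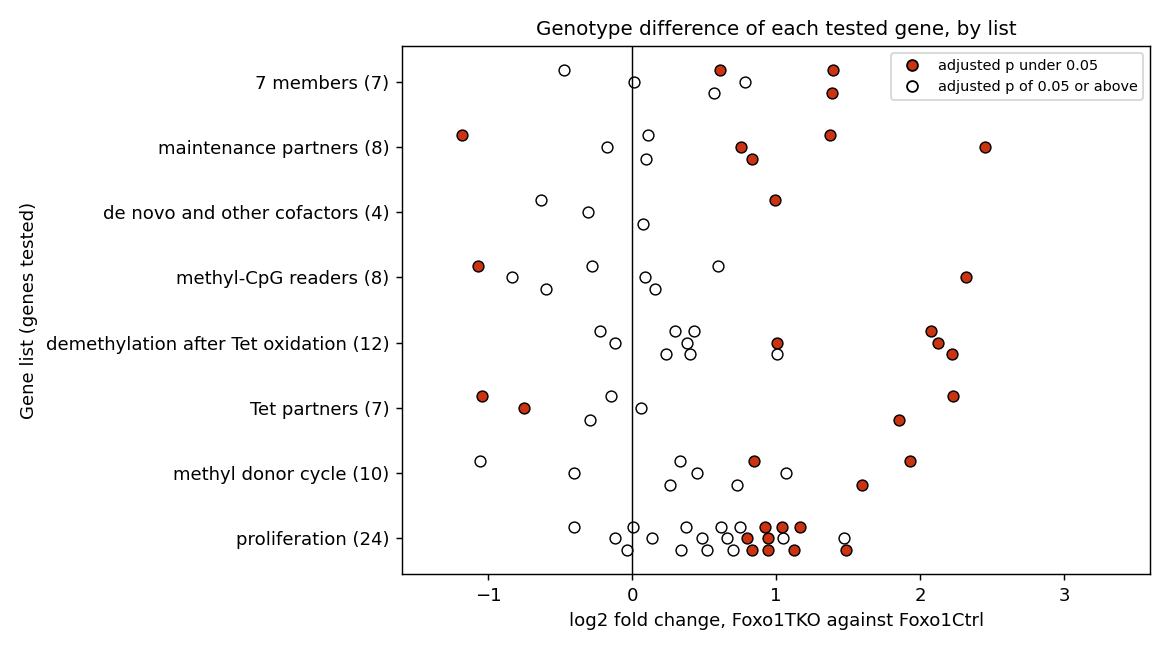
Log2 fold change (Foxo1TKO against Foxo1Ctrl, edgeR) of each tested gene, 1 point a gene, for the 7 members and 7 lists of genes that act with them; filled points have an adjusted p under 0.05 and the number of genes tested stands in brackets. Filled points lie to the right of 0 for the members, the steps after Tet oxidation, the methyl donor cycle and proliferation, and on both sides for maintenance partners, readers and Tet partners.

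The genes whose log2 normalized counts followed each member most closely were ranked by Pearson's r over the 6 libraries, pooled over both genotypes, among 13690 other genes. Those of Dnmt3a were Fubp1, Gm20743 and Srfbp1 (r of at least 0.998), and 744 genes exceeded an r of 0.95. For Tet2 they were Unc119, Gm32856 and Gm37298 (r of 0.994 to 0.998, 303 genes above 0.95), for Tet3 Bnip3, Treml2 and Adcy7 (0.997 to 0.998, 703 genes) and for Uhrf1 Hars, Rfwd3 and Ucp2 (0.990 to 0.994, 179 genes). For Dnmt1 they were Nup133, Reep5 and Atf6b (0.986 to 0.997, 67 genes), for Dnmt3b Slc16a10, Gm8806 and Esco2 (0.989 to 0.990, 31 genes) and for Tet1 Gm36423, Chmp4c and Aif1 (0.952 to 0.985, 3 genes). With 6 libraries in 2 groups these rankings describe these libraries only.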

How the data were processed

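The 6 libraries were assigned to Foxo1TKO and Foxo1Ctrl from their titles and genotypes. The authors aligned reads with STAR 2.7.6a to Ensembl GRCm38 and deposited RSEM 1.3.1 expected counts, TPM and transcript lengths per gene. They also deposited a table of normalized signal, scaled by DESeq2 size factors and relative gene lengths. Expected counts of the 7 genes were whole numbers apart from 3 values (133.97 and 517.93 for Uhrf1, 184.98 for Dnmt3b). They were rounded and tested with edgeR 4.0.16 in R 4.3.3 (TMM, glmQLFit, glmQLFTest, prior count 1, genotype as the only term) over 13691 genes reaching 10 counts in 3 or more libraries, with Benjamini-Hochberg adjustment over all of them. Normalized counts are TMM-scaled to the mean effective library size. Alternatives used DESeq2 1.42.0, limma 3.58.1 (voom, and log2 of the deposited signal plus 1), other scalings and filters, a length offset, a replicate block, stricter thresholds and each library left out in turn. Fits were tested on simulated counts. The changes put into these were larger than those of Tet2 and Tet3, so that test does not bear on their calls. Ratios and lengths were compared by two-sided exact permutation tests. Promoter windows are from RefSeq (GRCm38.p6) and gene positions from GENCODE M21 (GRCm38). The members and lists were chosen with earlier results of these data known. The genes named are the 7 members, Foxo1, the genes of each list that passed (at most the 5 with the largest change), Mki67, Top2a and Pcna, and the 3 genes most like each member. Further list genes given with their values were chosen after these were seen. Some genes of the lists are counted but not reported by name here.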

Additional observations from a re-analysis of the deposited data

How the results depend on the processing

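Dnmt3a passed in all 16 alternative fits (log2 fold change 1.28 to 1.58). Uhrf1 did not pass with limma-voom (1.33), library totals only (1.51), the length offset (1.38) or the deposited signal (1.31), and ranged from 0.84 to 1.62 without 1 library. Tet2 ranged from 0.51 to 0.70 without 1 library and passed in the other alternatives. Tet3 passed with DESeq2 (-0.47) and limma-voom (-0.47), but in none of the other alternatives or the fits without 1 library. Tet1 changed sign with the deposited signal (-0.018) and without Foxo1Ctrl library 3 (-0.03), Foxo1TKO library 1 (-0.0057) or Foxo1TKO library 3 (-0.066), ranging from -0.066 to 0.10 without 1 library and from -0.018 to 0.13 in the other alternatives. The number of the 7 genes that passed was 1 to 2 without 1 library (1, Dnmt3a, without Foxo1Ctrl library 1, Foxo1Ctrl library 3 or Foxo1TKO library 2), 4 with DESeq2 and 1 at an adjusted p under 0.01. Of all genes, 1854 (without Foxo1TKO library 2) to 3604 passed without 1 library, 2032 without Foxo1Ctrl library 1, and 1597 at an adjusted p under 0.01. Scaling by library totals only moved the median log2 fold change of all genes to 0.12 and gave 2048 higher and 1399 lower genes, against 1613 and 1695. The genotype difference in transcript length changed sign without 1 library for Dnmt1 (-195.7 to 635.4 bases; -88.02 without Foxo1Ctrl library 2), Dnmt3a (-979.3 to 117.3; 110.1), Uhrf1 (-49.95 to 67.38), Tet1 (-340.6 to 598.3) and Tet3 (-161.2 to 162.5; 115.3 without Foxo1TKO library 1). The causes were not tested.

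Whether libraries with the same replicate number form pairs could not be told. Correlations of deviations from the genotype means were 0.43, 0.20 and -0.11 for the same number and -0.45 to 0.30 for different numbers. The paper used paired tests for its cytometry of such cultures, and the labels do not say whether these libraries were paired. With the replicate block 3428 genes and 3 of the 7 passed, the same 3 (Dnmt3a 1.40, Uhrf1 1.32, Tet2 0.60).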
